A study of Homo sapiens with 14 samples.

Results

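The genes described here are 10 members of the YAP and TEAD pathway: the coactivators YAP1 and WWTR1 (the gene of TAZ), the DNA-binding factor TEAD1, and the targets and regulators CCN1, CCN2, ANKRD1, AXL, AMOTL2, LATS2 and AJUBA. They were chosen by their GENCODE symbols, and they are 10 of the 60683 gene identifiers counted in each library. The members and the gene lists below were picked with earlier results of these data known. Counts of them beside the share of all genes are therefore descriptive and not an independent test. RNA sequencing was done on A549, a lung adenocarcinoma line, and SUM159, a triple negative breast cancer line, both human. A549 cells were untreated, or received for 10 days 2 μM palbociclib (an inhibitor of CDK4 and CDK6), 0.5 μM indisulam (an aryl sulfonamide that brings the splicing factor RBM39 to degradation) or both drugs at these doses, named the combination below. A549 and SUM159 cells also received 0.5 μM PF-06873600 for 7 days, which inhibits CDK2 as well as CDK4 and CDK6, and untreated SUM159 cells were the control. Each of the 7 groups had 2 libraries, named replicate 1 and replicate 2, so there were 14 in all. The labels do not give the day on which untreated cells were collected. A549 grew in RPMI and SUM159 in DMEM/F12 with insulin and hydrocortisone, so the line and its medium cannot be told apart. The duplicates are described in the series as technical, and p-values below then measure only the spread between these libraries.

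YAP and TAZ are transcriptional coactivators that do not bind DNA on their own. When the Hippo kinases (STK3, STK4, LATS1 and LATS2) are inactive, YAP and TAZ enter the nucleus and act mainly through the TEAD factors. Known targets include the secreted matricellular proteins CCN1 and CCN2, the ankyrin repeat protein ANKRD1 and the receptor tyrosine kinase AXL, and also genes whose proteins act back on the pathway, such as AMOTL2, LATS2 and AJUBA. YAP and TAZ are controlled to a large part by phosphorylation and location, which RNA levels do not measure.

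TEAD factors recognise the letters GGAATG, which read CATTCC on the other strand. These letters were searched on both strands in the 250 bases before each start site that the RefSeq windows (GRCh38.p14) hold for a gene. The windows matched 8 of the 10 members, not CCN1 and TEAD1, and held 12 windows of these 8 genes. At least 1 match was present in 6 of the 12 windows, against 11.9% of all 35116 windows. CCN2 held 3 matches, which 0.0826% of all windows reached, and ANKRD1 held 2, which 0.94% of all windows reached. YAP1 held 1. AXL, AMOTL2 and AJUBA held 1 each, in a window at a start site inside the span that GENCODE gives the gene, and none in their other window. No match was present in the window of LATS2 or in those of WWTR1, which also lie inside its gene. A match is a run of letters and does not show that a factor was bound there. The promoters of CCN2 and ANKRD1 are shown, since both held more than 1 match and both genes are much-used readouts of YAP and TEAD, with the matches in capitals. CCN2 is read from the minus strand of chr6:131951373-131951622, and ANKRD1 from the minus strand of chr10:90921088-90921337.
CCN2: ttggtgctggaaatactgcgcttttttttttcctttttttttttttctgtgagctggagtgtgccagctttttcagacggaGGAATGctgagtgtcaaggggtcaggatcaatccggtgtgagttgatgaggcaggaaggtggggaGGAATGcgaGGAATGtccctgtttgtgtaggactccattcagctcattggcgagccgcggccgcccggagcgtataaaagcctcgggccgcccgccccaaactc
ANKRD1: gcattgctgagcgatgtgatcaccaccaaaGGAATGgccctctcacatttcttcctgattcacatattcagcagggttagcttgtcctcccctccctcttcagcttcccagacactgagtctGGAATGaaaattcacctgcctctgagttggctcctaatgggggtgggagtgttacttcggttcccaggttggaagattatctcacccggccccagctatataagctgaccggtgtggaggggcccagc

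Gene counts summed to between 13060374 and 21149256 per library, so 3 counts, taken here as the detection floor, were worth 0.142 to 0.23 counts per 1000000 gene counts (CPM). The floor covers counting error only. Replicates differed by more than counting noise in every group, and chi-square divided by its degrees of freedom ran from 1.61 to 9.57, highest in the untreated groups of A549 and SUM159. The A549 markers KRT8, KRT18, AKR1B10, AKR1C1, ALDH3A1 and CDH1 summed to 13580 to 26130 CPM in A549 and 575.7 to 805.8 CPM in SUM159. VIM, ZEB1 and SNAI2 were higher in SUM159, while FOXC1, listed as a SUM159 marker, went against this list and was higher in untreated A549. In SUM159, 5 genes usual in blood or endothelial cells summed to 20.27 to 21.41 CPM without drug and 46.66 to 47.0 CPM with PF-06873600, and CD3E among them was at 0. The 3 of them that could be tested there, PTPRC, PECAM1 and CDH5, were called higher with the drug, as were 38.1% of all genes tested. All 10 members passed the filter on low counts in each model. A gene was called where its adjusted p was under 0.05 in edgeR's quasi-likelihood test with Benjamini-Hochberg adjustment over all genes tested. In these bulk samples fewer cells with a transcript and less of it per cell cannot be told apart.

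In A549, the combination was the treatment with the most members called. All 10 were higher than in untreated cells and 0 were lower, where 35.1% of all 15780 genes tested were higher and 30.0% lower. ANKRD1 rose 45.5-fold, CCN1 8.09-fold, CCN2 3.99-fold and AXL 3.09-fold, while the coactivator genes YAP1 and WWTR1 rose 1.21-fold and 1.24-fold. The median log2 fold change of the members was 1.17, and that of all genes tested 0.05. With palbociclib alone 7 members were higher and 0 lower (background 8.3% higher and 7.4% lower), and with indisulam alone 8 were higher and 0 lower (background 28.0% and 17.5%). Members not called were YAP1, CCN2 and LATS2 for palbociclib, and YAP1 and CCN2 for indisulam. With PF-06873600 8 members were higher and 0 lower (background 28.5% and 27.8%), and CCN2 and LATS2 were not called. These 4 comparisons share the same pair of untreated libraries. The 10 proliferation genes on a fixed list (MKI67, TOP2A and others) had a lower sum in every treated library than in the untreated ones. It was 773.7 to 835.6 CPM in untreated A549, 620.8 to 645.8 with palbociclib, 680.6 to 697.3 with indisulam, 177.7 to 183.9 with the combination and 515.6 to 532.2 with PF-06873600. Of the 10 genes, 7 fell and 3 were not called with palbociclib, 4 fell, 1 (TYMS) rose and 5 were not called with indisulam, 10 fell with the combination, and 8 fell, 1 (TYMS) rose and 1 was not called with PF-06873600. The part of lower proliferation in the member values was not tested.

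In SUM159 the members mostly went the other way. PF-06873600 left 7 members lower, 2 higher and 1 not called, where 35.6% of the 15055 genes tested were lower and 38.1% higher. The lower ones were YAP1, TEAD1, CCN1, CCN2, AXL, AMOTL2 and AJUBA, and the higher ones were WWTR1 and ANKRD1. The median log2 fold change of the members was -0.24, and that of all genes tested 0.02. The proliferation genes summed to 2857 to 2988 CPM in untreated SUM159 and 957 to 959.6 CPM with the drug, and 10 of 10 fell. Their part in the member values was not tested here either.

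**Figure D1:**
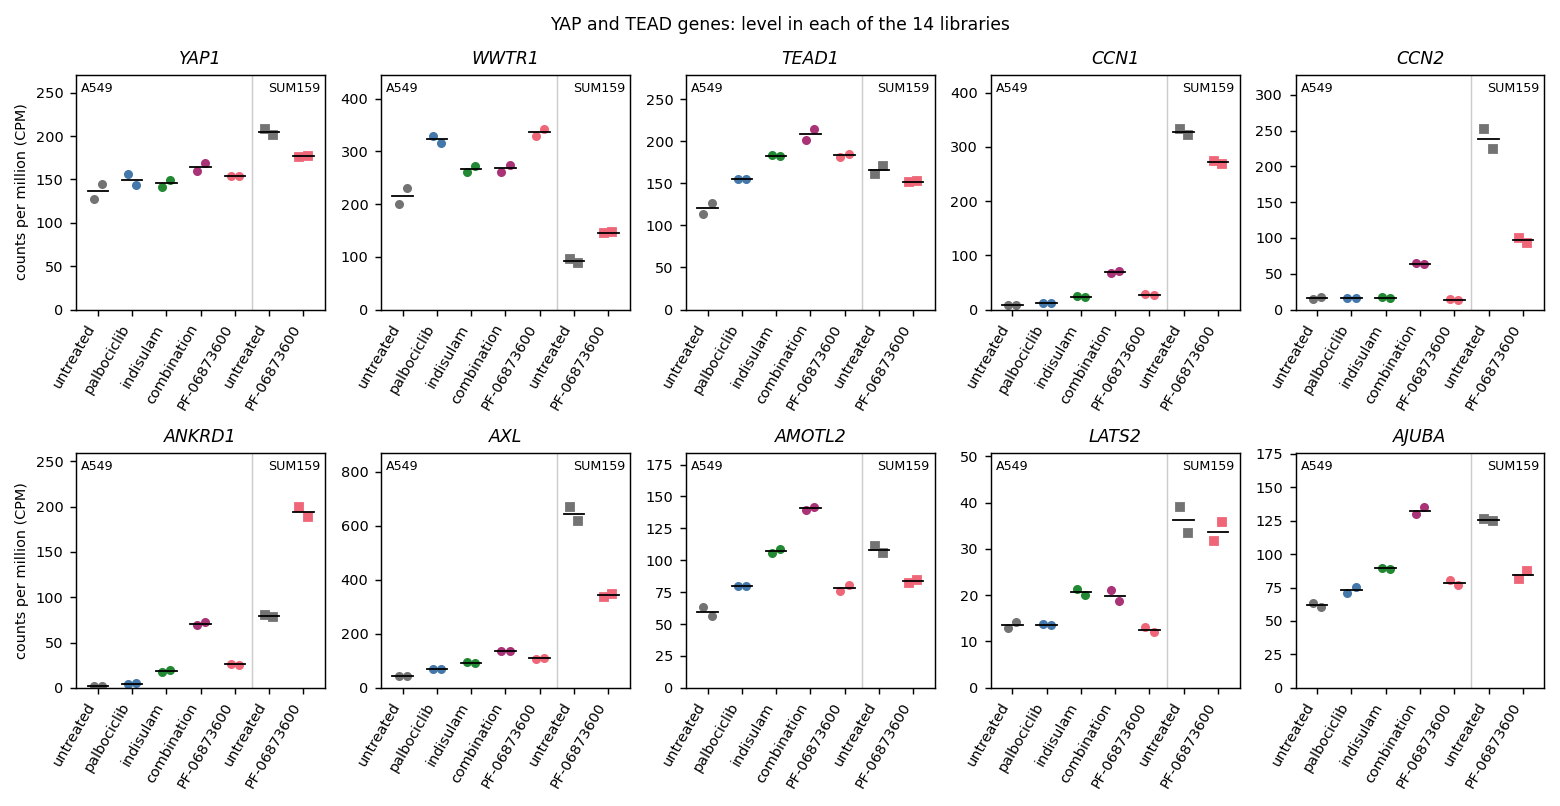
Level of each member in CPM (vertical axis, linear, from 0) in the 14 libraries, by cell line and treatment (horizontal axis). Each point is 1 library and each bar the mean of the 2 libraries of a group. CCN1, CCN2, AXL and ANKRD1 sit far higher in SUM159 than in untreated A549, and within A549 the combination has the highest level of each member but WWTR1 and LATS2.

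Of the coactivator genes, YAP1 changed little and WWTR1 more. YAP1 (ENSG00000137693, chr11:102110447-102233424, plus strand, GRCh38) had the narrowest range of the members, with 1.63-fold between the highest and the lowest library. In A549 it was at 128 and 145 CPM without drug, 156 and 144 with palbociclib, 142 and 149 with indisulam, 160 and 169 with the combination, and 155 and 154 with PF-06873600. The palbociclib and indisulam libraries overlapped with the untreated ones, and those of the combination and PF-06873600 lay above them. The combination raised YAP1 by 0.27 on the log2 scale (SE 0.07, adjusted p = 0.00338). PF-06873600 raised it by 0.18 (SE 0.07, adjusted p = 0.0392), and this call was lost without untreated replicate 1 (0.09, adjusted p = 0.234), without PF-06873600 replicate 1 (0.18, adjusted p = 0.133) or replicate 2 (0.18, adjusted p = 0.136), under DESeq2 (adjusted p = 0.05) and when only the PF-06873600 and untreated libraries were fitted (adjusted p = 0.0891). YAP1 was not called with palbociclib (0.14, 95% interval -0.01 to 0.29) or indisulam (0.09), but both were called without untreated replicate 2 (0.23, adjusted p = 0.0188, and 0.19, adjusted p = 0.0254). In SUM159 YAP1 was at 208 and 201 CPM without drug and 176 and 177 with PF-06873600, a fall of 1.16-fold (adjusted p = 0.00207) with no overlap.

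WWTR1 (ENSG00000018408, chr3:149517235-149736714, minus strand) codes for TAZ, the partner and paralog of YAP. It was the member for which palbociclib gave a higher level than the combination. Its A549 libraries were at 201 and 230 CPM without drug, 330 and 316 with palbociclib, 261 and 272 with indisulam, 262 and 275 with the combination, and 329 and 343 with PF-06873600. All drug libraries lay above both untreated ones, and those with a CDK inhibitor alone lay highest. The increase was 1.5-fold with palbociclib (adjusted p = 3.63e-05), 1.24-fold with indisulam (adjusted p = 0.00177), 1.24-fold with the combination (adjusted p = 0.000758) and 1.56-fold with PF-06873600 (adjusted p = 1.29e-06). Against palbociclib alone the combination was lower by 1.20-fold (adjusted p = 0.00273). In SUM159 WWTR1 rose from 96.2 and 89.1 CPM to 145 and 147 with PF-06873600, which is 1.57-fold (adjusted p = 6.33e-08).

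Per kilobase of exon, the coactivator genes stood in another order in the lines. Untreated A549 had 25.8 ± 2.43 CPM per kb of WWTR1 and 21.6 ± 1.93 of YAP1 (SD, n = 2), and untreated SUM159 had 11.1 ± 0.608 of WWTR1 and 32.5 ± 0.785 of YAP1. YAP1 was 1.5-fold higher in untreated SUM159 than in untreated A549 (adjusted p = 1.65e-06), and WWTR1 was 2.33-fold lower (adjusted p = 1.25e-09). A long noncoding RNA on the opposite strand covers 9.95% of the exon bases of YAP1, and WWTR1-AS1 covers 9.05% of those of WWTR1. The strand setting used in counting is not given in the sources used here, and these antisense genes had at most 4 and 13 counts in any library.

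TEAD1 (ENSG00000187079, chr11:12674421-12944737, plus strand) codes for a DNA-binding partner of YAP and TAZ. In A549 it was at 114 and 127 CPM without drug, 155 and 155 with palbociclib, 184 and 182 with indisulam, 202 and 215 with the combination, and 182 and 185 with PF-06873600. No drug library overlapped with the untreated ones. The increase was 1.29-fold with palbociclib (adjusted p = 0.0012), 1.52-fold with indisulam (adjusted p = 2.56e-06), 1.73-fold with the combination (adjusted p = 4.43e-08) and 1.52-fold with PF-06873600 (adjusted p = 1.3e-06). The combination was also above indisulam alone, by 0.19 on the log2 scale (adjusted p = 0.0219), a call lost without indisulam replicate 1 (0.19, adjusted p = 0.0802), indisulam replicate 2 (0.18, adjusted p = 0.0996) or combination replicate 2 (0.14, adjusted p = 0.189). In SUM159 TEAD1 went from 161 and 171 CPM to 152 and 152 with PF-06873600, a log2 difference of -0.13 (adjusted p = 0.0446). That call was lost under DESeq2 (-0.13, adjusted p = 0.0925), with no filter on low counts (adjusted p = 0.0721), without untreated replicate 2 (-0.09, adjusted p = 0.123), and without PF-06873600 replicate 1 (-0.13, adjusted p = 0.232) or replicate 2 (-0.13, adjusted p = 0.221). Among the TEAD genes, untreated A549 had 11.2 CPM per kb of TEAD1, 10.3 of TEAD2, 5.00 of TEAD3 and 9.44 of TEAD4. Untreated SUM159 had 15.5, 8.05, 13.2 and 17.7 CPM per kb of the same genes.

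CCN1 (ENSG00000142871, chr1:85580761-85584589, plus strand), also named CYR61, codes for a secreted matricellular protein. Its A549 libraries were at 8.16 and 9.0 CPM without drug, 12.84 and 12.02 with palbociclib, 24.7 and 23.2 with indisulam, 67.2 and 71.8 with the combination, and 28.2 and 27.1 with PF-06873600. The 5 groups did not overlap, and palbociclib, indisulam, PF-06873600 and the combination followed in this order above untreated cells. The increase was 1.45-fold with palbociclib (log2 0.53, SE 0.11, adjusted p = 0.00478), 2.79-fold with indisulam (log2 1.48, SE 0.10, adjusted p = 3.72e-08) and 8.09-fold with the combination (log2 3.02, SE 0.09, adjusted p = 1.62e-12). The palbociclib call was lost when only the palbociclib and untreated libraries were fitted (adjusted p = 0.0623). PF-06873600 gave 3.22-fold (adjusted p = 3.6e-09). In SUM159 CCN1 was at 334 and 323 CPM without drug and 275 and 269 with PF-06873600, which is 1.21-fold lower (adjusted p = 0.000411) and still far above every A549 library.

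CCN2 (ENSG00000118523, chr6:131948176-131951372, minus strand), also named CTGF, belongs to the same protein family but followed another pattern. In A549 it was at 14.9 and 17.1 CPM without drug, 15.5 and 16.5 with palbociclib, 17.6 and 15.5 with indisulam, 65.0 and 63.0 with the combination, and 14.2 and 12.9 with PF-06873600. The libraries with a single drug of the pair overlapped with the untreated ones, and those with both drugs lay far above them. The log2 fold change was 0.00 with palbociclib (95% interval -0.23 to 0.23) and 0.05 with indisulam, and neither was called. With the combination it was 2.00 (SE 0.09, adjusted p = 1.51e-10), 1.99 against palbociclib alone (adjusted p = 2.2e-10) and 1.95 against indisulam alone (adjusted p = 6.83e-10). The PF-06873600 libraries were below the untreated ones, with a log2 difference of -0.25 that was not called (95% interval -0.48 to -0.01, adjusted p = 0.0709), but was without untreated replicate 1 (-0.34, adjusted p = 0.0231). In SUM159 CCN2 was at 253 and 225 CPM without drug and 99.4 and 93.6 with PF-06873600, a fall of 2.48-fold (adjusted p = 1.32e-10). LINC01013 on the opposite strand covers 11.89% of the exon bases of CCN2 and had at most 1 count in any library. One of the senescence gene lists used in the study holds CCN2 under the name CTGF.

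ANKRD1 (ENSG00000148677, chr10:90912096-90921087, minus strand) codes for an ankyrin repeat protein known from heart muscle and is a common YAP readout. It had the widest range of the members, 134-fold between the highest and the lowest library. In A549 it was at 1.495 and 1.6 CPM without drug, 4.30 and 4.94 with palbociclib, 16.9 and 20.0 with indisulam, 69.3 and 72.3 with the combination, and 26.4 and 25.5 with PF-06873600. The 5 groups did not overlap. The log2 fold change was 1.58 with palbociclib (SE 0.20, adjusted p = 0.000106), 3.57 with indisulam (SE 0.16, adjusted p = 4.11e-10) and 5.51 with the combination (SE 0.14, adjusted p = 1.65e-13). With PF-06873600 it was 4.06 (SE 0.15, adjusted p = 2.88e-11). In SUM159 ANKRD1 rose from 80.9 and 78.6 CPM to 200 and 188 CPM with PF-06873600, which is 2.43-fold (adjusted p = 4e-11). It was thus the target among the members that rose with PF-06873600 in both lines.

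AXL (ENSG00000167601, chr19:41219223-41261766, plus strand) is a receptor tyrosine kinase of the TAM family, with GAS6 as its ligand. In A549 it was at 44.1 and 43.9 CPM without drug, 71.0 and 69.0 with palbociclib, 93.8 and 90.3 with indisulam, 136 and 136 with the combination, and 108 and 110 with PF-06873600. The groups did not overlap and stood in the same order as for CCN1 and ANKRD1. The increase was 1.59-fold with palbociclib (adjusted p = 5.34e-06), 2.09-fold with indisulam (adjusted p = 5.17e-09), 3.09-fold with the combination (adjusted p = 1.03e-11) and 2.48-fold with PF-06873600 (adjusted p = 2.53e-10). In SUM159 AXL fell from 670 and 616 CPM to 338 and 349 CPM with PF-06873600, which is 1.87-fold (adjusted p = 5.94e-09). AXL is also on the study's list of genes of the senescence-associated secretory phenotype.

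The remaining 3 members code for proteins that act back on the pathway. AMOTL2 (ENSG00000114019, chr3:134355347-134375479, minus strand), an angiomotin family protein that binds YAP, was at 63.3 and 56.3 CPM in untreated A549, 79.6 and 80.0 with palbociclib, 106 and 109 with indisulam, 140 and 142 with the combination, and 76.0 and 80.9 with PF-06873600. All drug libraries lay above the untreated ones, by 1.33-fold (adjusted p = 0.000808), 1.80-fold (adjusted p = 1.8e-07), 2.35-fold (adjusted p = 7.16e-10) and 1.31-fold (adjusted p = 0.000209) in this order. In SUM159 it went from 111 and 106 CPM to 82.3 and 84.8 with PF-06873600, a fall of 1.3-fold (adjusted p = 2.19e-05).

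AJUBA (ENSG00000129474, chr14:22971177-22982551, minus strand), a LIM domain protein that can hold LATS kinases inactive, was at 63.5 and 60.5 CPM in untreated A549, 70.7 and 75.7 with palbociclib, 89.4 and 89.2 with indisulam, 130 and 135 with the combination, and 80.4 and 76.7 with PF-06873600. The 5 groups did not overlap, and the combination stood highest. The increase was 1.18-fold with palbociclib (adjusted p = 0.0203), a call lost without palbociclib replicate 2 (adjusted p = 0.189) and when only palbociclib and untreated libraries were fitted (adjusted p = 0.149). It was 1.44-fold with indisulam (adjusted p = 1.24e-05), 2.14-fold with the combination (adjusted p = 1.31e-09) and 1.27-fold with PF-06873600 (adjusted p = 0.000416). In SUM159 AJUBA fell from 127 and 125 CPM to 81.1 and 87.6 with PF-06873600, by 1.49-fold (adjusted p = 2.92e-07).

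LATS2 (ENSG00000150457, chr13:20973036-21061586, minus strand), a kinase that phosphorylates YAP and TAZ, split the drugs in another way. In A549 it was at 12.9 and 14.1 CPM without drug, 13.7 and 13.5 with palbociclib, 21.4 and 20.0 with indisulam, 21.1 and 18.7 with the combination, and 13.02 and 11.99 with PF-06873600. The groups with indisulam lay above the other 3, of which untreated cells overlapped with both others. LATS2 rose 1.53-fold with indisulam (adjusted p = 0.000282) and 1.47-fold with the combination (adjusted p = 0.00031). The combination did not pass the test against indisulam alone (log2 -0.06), nor palbociclib (log2 0.01, 95% interval -0.23 to 0.25) or PF-06873600 (log2 -0.11, 95% interval -0.35 to 0.13) against untreated cells. In SUM159 the libraries overlapped, with 39.0 and 33.4 CPM without drug and 31.7 and 35.7 with PF-06873600 (log2 -0.10, 95% interval -0.29 to 0.09). Without untreated replicate 2 the fall in SUM159 was called (-0.21, adjusted p = 0.0231), and without untreated replicate 1 the value was 0.02.

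The next question was how the combination compared with each of its drugs. Against palbociclib 8 members were higher and 1, WWTR1, was lower (background 33.5% higher and 26.9% lower), and YAP1 was not called. Against indisulam 7 were higher and 0 lower (background 22.0% and 23.9%), and YAP1, WWTR1 and LATS2 were not called. YAP1 was near the threshold against indisulam (0.18, adjusted p = 0.0513) and was called under DESeq2 (0.21, adjusted p = 0.0486). It was also called when only the groups compared were fitted, both against indisulam (adjusted p = 0.00712) and against palbociclib (0.14, adjusted p = 0.0445). The targets CCN1, CCN2, ANKRD1 and AXL were above both single drugs, by 5.6, 3.98, 15.2 and 1.94-fold against palbociclib and by 2.90, 3.87, 3.83 and 1.48-fold against indisulam. The interaction term asks whether the log2 change with both drugs differs from the sum of the changes with each. It was called higher for 3 members and lower for 1 (background 10.7% higher and 14.5% lower). CCN2 was above the sum by 1.95 (SE 0.14, adjusted p = 2.04e-07), CCN1 by 1.01 (SE 0.14, adjusted p = 9.54e-05) and AJUBA by 0.33 (SE 0.09, adjusted p = 0.0144). WWTR1 was below the sum, at -0.57 (SE 0.09, adjusted p = 0.000386). ANKRD1, with the largest rise of the members, was not called (0.36, 95% interval -0.16 to 0.87), and the same held for AXL (-0.11, 95% interval -0.28 to 0.07). The AJUBA call was lost without palbociclib replicate 1 (0.28, adjusted p = 0.0724) or combination replicate 2 (0.30, adjusted p = 0.07), and TEAD1 (-0.18) was called lower without untreated replicate 2 (-0.26, adjusted p = 0.0122). PF-06873600 was given for 7 days and the other drugs for 10 days, so its values stand beside the others without a test between them.

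**Figure D2:**
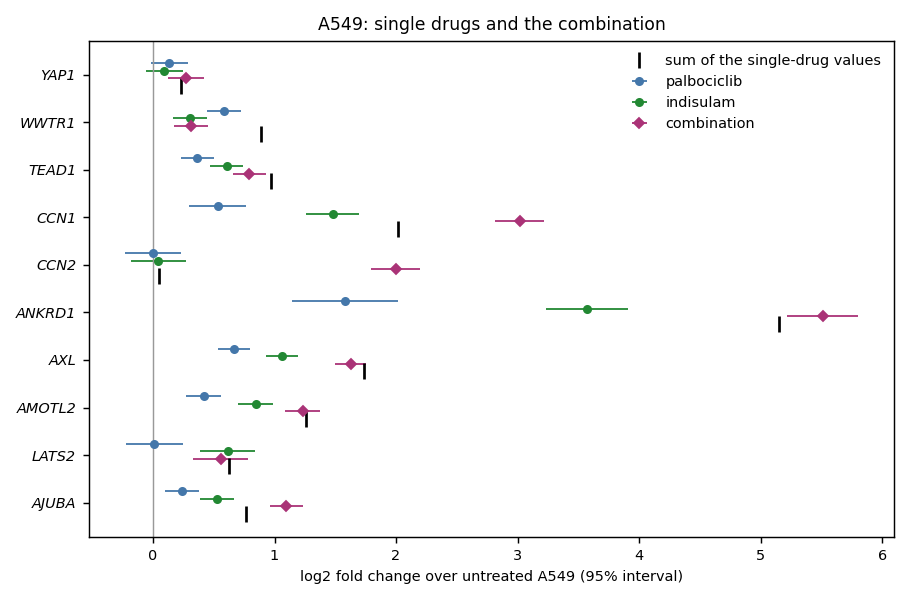
Log2 fold change over untreated A549 (horizontal axis) of each member with palbociclib, indisulam and the combination. Points are estimates from edgeR, lines their 95% intervals, and the black tick is the sum of the values of the single drugs. The combination lies to the right of the tick for CCN1 and CCN2 and to the left of it for WWTR1.

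Without drug the lines differed strongly in these genes. In untreated SUM159 9 members were higher than in untreated A549 and 1, WWTR1, was lower, where 42.8% of the 16707 genes tested were higher and 36.4% lower. ANKRD1 was 51.3-fold higher (log2 5.68, SE 0.12, adjusted p = 7.25e-15), CCN1 38.2-fold (log2 5.26, SE 0.08, adjusted p = 6.37e-16), CCN2 14.9-fold (log2 3.90, SE 0.09, adjusted p = 3.45e-14) and AXL 14.6-fold (log2 3.87, SE 0.07, adjusted p = 3.16e-15). LATS2, AJUBA, AMOTL2, YAP1 and TEAD1 were 2.69, 2.03, 1.81, 1.5 and 1.38-fold higher. Per kilobase of exon, AXL (125 CPM per kb), CCN2 (102) and CCN1 (88.7) were the 3 highest members in untreated SUM159, while WWTR1 and YAP1 were the highest in untreated A549. The proliferation genes were also higher in untreated SUM159, 10 of 10, and their part was not tested.

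PF-06873600 was the only drug of the series measured here in both lines at 1 dose and 1 time. The change in SUM159 was lower than in A549 for 8 members and higher for 0 (background 27.2% lower and 25.6% higher). The log2 difference between the changes was -2.78 for ANKRD1 (SE 0.16, adjusted p = 5.03e-09), -2.21 for AXL (SE 0.09, adjusted p = 3.46e-10), -1.96 for CCN1 (SE 0.11, adjusted p = 4.5e-09) and -1.06 for CCN2 (SE 0.14, adjusted p = 1.54e-05). It was -0.91 for AJUBA (adjusted p = 1.81e-06), -0.77 for AMOTL2 (adjusted p = 2.11e-05), -0.73 for TEAD1 (adjusted p = 1.45e-05) and -0.40 for YAP1 (adjusted p = 0.0031). AXL, CCN1, AMOTL2, AJUBA, YAP1 and TEAD1 rose in A549 and fell in SUM159. Of all genes tested in each line, 28.5% rose in A549 and 35.6% fell in SUM159, and the share of genes that did both was not counted. The calls of the YAP1 rise in A549 and of the TEAD1 fall in SUM159 depended on single libraries, as given above. ANKRD1 rose in both lines, less in SUM159, where it started higher. WWTR1 rose by 0.64 in A549 and 0.65 in SUM159 on the log2 scale, and the difference of 0.01 was not called (95% interval -0.21 to 0.23). For LATS2 the difference was also 0.01, with a wider interval of -0.33 to 0.36. Even after their fall, CCN1, CCN2 and AXL in treated SUM159 (269 to 275, 93.6 to 99.4 and 338 to 349 CPM) lay above the highest A549 libraries.

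**Figure D3:**
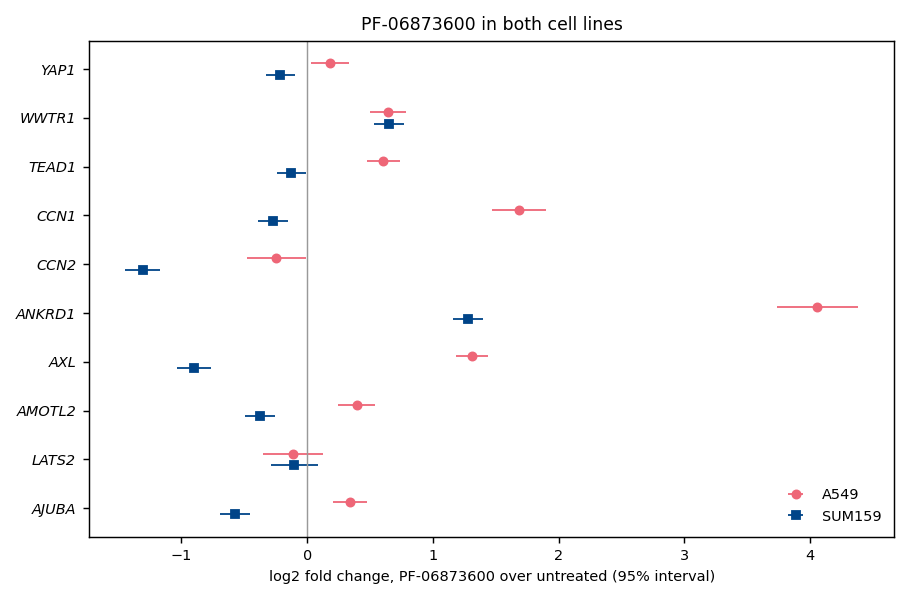
Log2 fold change with PF-06873600 over untreated cells of the same line (horizontal axis) for each member in A549 (circles) and SUM159 (squares), with 95% intervals from edgeR. The intervals of the lines overlap for WWTR1 and LATS2, ANKRD1 is above 0 in both, and AXL, CCN1, AMOTL2 and AJUBA are above 0 in A549 and below 0 in SUM159.

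Other genes known as YAP and TEAD targets were followed on a fixed list of 16, also chosen with earlier results of these data known. With the combination 14 of the 16 rose and 2 fell in A549 (background 35.1% higher and 30.0% lower), with a median log2 fold change of 1.21. The highest was CCDC80, a secreted matrix protein, at 2.98 (SE 0.06, adjusted p = 3.2e-14), and the lowest NT5E, the ectoenzyme CD73, at -0.96 (SE 0.06, adjusted p = 7e-09). IGFBP3, an IGF-binding protein, was the other that fell (-0.41, adjusted p = 3.62e-05). Palbociclib alone gave 5 higher and 3 lower (background 8.3% and 7.4%), indisulam alone 12 and 1 (background 28.0% and 17.5%), and PF-06873600 12 and 2 (background 28.5% and 27.8%). The highest with PF-06873600 was the growth factor gene TGFB2, at 2.36 (SE 0.08, adjusted p = 6.45e-12). The interaction of palbociclib and indisulam was called higher for 7 of the 16 and lower for 1 (background 10.7% and 14.5%).

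In SUM159 9 of the 16 rose with PF-06873600, 4 fell and 3 were not called (background 38.1% higher and 35.6% lower), with a median of 0.22. The list was not tested against the members. IGFBP3 was the highest, at 2.78 (SE 0.11, adjusted p = 1.44e-11), and CRIM1, a transmembrane protein that binds BMPs, the lowest, at -0.94 (SE 0.06, adjusted p = 9.71e-10). IGFBP3 was at 5.14 to 5.61 CPM in untreated and 35.0 to 39.1 CPM in treated SUM159, and at 768 to 822 CPM in untreated A549. NT5E rose in SUM159 (1.13, adjusted p = 1.93e-10) and fell in A549. Compared with A549, the response in SUM159 was called lower for 10 of the 16 and higher for 3 (background 27.2% and 25.6%).

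**Figure D4:**
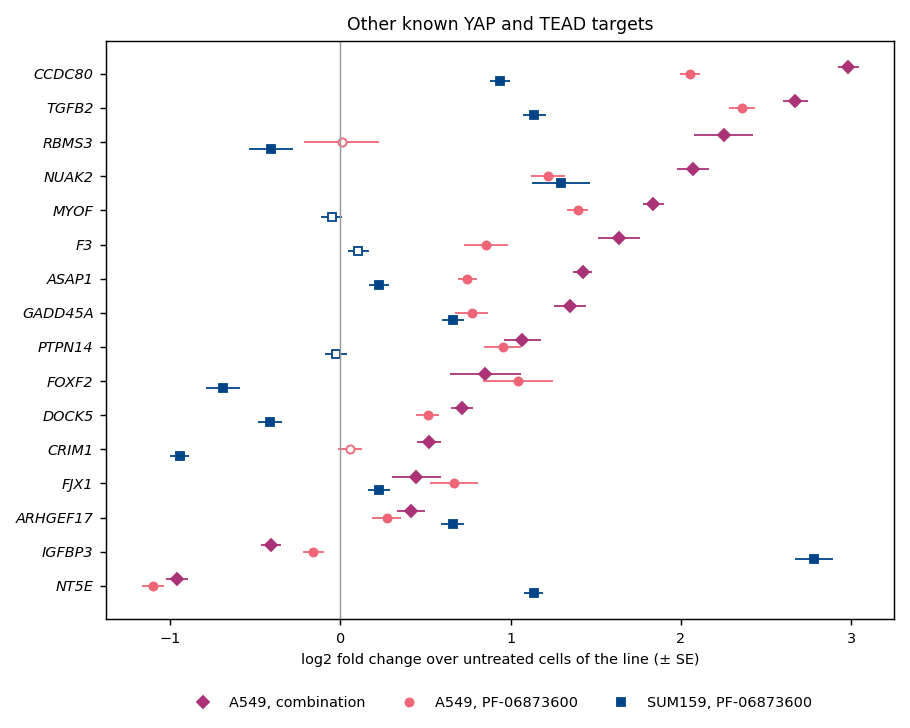
Log2 fold change over untreated cells of the same line (horizontal axis, ± SE) for 16 other known YAP and TEAD targets, sorted by the combination in A549. Filled symbols were called at an adjusted p under 0.05 and open symbols were not. Shown are the combination and PF-06873600 in A549 and PF-06873600 in SUM159, which did not receive the combination. With the combination, NT5E and IGFBP3 lie below 0 in A549 and the other 14 above it. With PF-06873600, NT5E and IGFBP3 lie below 0 in A549 (-1.10 and -0.16) and above 0 in SUM159 (1.13 and 2.78).

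The Hippo kinase core was followed on a list of 12 without LATS2. With the combination 6 of the 12 rose and 0 fell in A549 (background 35.1% higher and 30.0% lower), from SAV1, the scaffold of the STK3 and STK4 kinases, at 0.36 (adjusted p = 0.00258) to FRMD6, a FERM domain protein upstream of the kinases, at 1.37 (adjusted p = 2.47e-09). PF-06873600 gave 6 higher and 4 lower in A549 (background 28.5% and 27.8%), and 4 higher and 6 lower in SUM159 (background 38.1% and 35.6%), so several of these shares were near those of all genes. WWC1, the scaffold KIBRA, was the highest in both lines, at 1.00 (adjusted p = 3.6e-09) and 0.93 (adjusted p = 1.55e-09). The lowest was SAV1 in A549 (-0.42, adjusted p = 0.0017) and LATS1, the paralog of LATS2, in SUM159 (-0.61, adjusted p = 1.04e-06).

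Of the other TEAD and VGLL genes, 5 of 6 could be tested, since VGLL1 was not counted often enough. VGLL proteins bind TEAD factors in place of YAP and TAZ. The combination left 3 of the 5 higher and 1 lower in A549 (background 35.1% and 30.0%), with VGLL3 at 1.03 (adjusted p = 1.72e-05). TEAD4 was at -0.25 (adjusted p = 0.0392), a call lost without untreated replicate 1 (-0.21, adjusted p = 0.132) or combination replicate 2 (-0.14, adjusted p = 0.322), under DESeq2 (adjusted p = 0.0759), with no filter on low counts (adjusted p = 0.0744) and when only the combination and untreated libraries were fitted (adjusted p = 0.0988). With PF-06873600 TEAD4 was the highest of the 5 in A549, at 0.89 (adjusted p = 1.27e-06), and the lowest in SUM159, at -1.39 (adjusted p = 1.84e-09). VGLL4 went the other way round, at -0.24 in A549 (adjusted p = 0.00318) and 0.90 in SUM159 (adjusted p = 2.37e-08).

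Relatives of AMOTL2 and AJUBA were AMOT, AMOTL1, LIMD1 and WTIP. AMOT, the founder of the angiomotin family, was the highest of the 4 in each case: it rose by 2.29 with the combination (adjusted p = 1.25e-09) and 1.88 with PF-06873600 in A549 (adjusted p = 2.95e-08), and by 2.2 in SUM159 (adjusted p = 7.98e-05), where it was low, with 0.301 to 0.626 CPM in untreated and 1.87 to 2.36 CPM in treated libraries. LIMD1, a LIM protein like AJUBA, fell in A549 with both treatments (-0.49, adjusted p = 1.92e-05, and -0.42, adjusted p = 0.000106). In SUM159 4 of the 4 rose (background 38.1%), whereas AMOTL2 and AJUBA fell. Without PF-06873600 replicate 1 the call of AMOTL1 in SUM159 was lost (0.24 with all libraries, 0.19 without, adjusted p = 0.0578).

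In the CCN family, CCN5 rose with the combination from 2.52 to 2.87 CPM in untreated A549 to 42.5 to 45.7 CPM (log2 4.03, SE 0.12, adjusted p = 1.22e-12), and by 2.19 with PF-06873600 (adjusted p = 8.06e-09). CCN3 rose by 0.99 (adjusted p = 5.68e-08) and 1.25 (adjusted p = 7.59e-09) in the same comparisons. In SUM159, where CCN1 and CCN2 fell with PF-06873600, CCN4 rose from 8.52 to 9.29 CPM to 56.2 to 58.2 CPM (log2 2.68, adjusted p = 1.49e-12). CCN5 was at 0.45 in SUM159 (adjusted p = 0.0182), a call lost without untreated replicate 1 (0.30, adjusted p = 0.1) and without PF-06873600 replicate 2 (0.38, adjusted p = 0.135), and under DESeq2 (adjusted p = 0.124). Of the relatives of AXL, GAS6, its ligand, rose by 1.15 with the combination in A549 (adjusted p = 2.38e-05) and by 2.30 with PF-06873600 in SUM159 (adjusted p = 2.65e-13). It was at 59.5 to 61.3 CPM in untreated SUM159 and 283 to 309 CPM with the drug, so ligand and receptor moved in opposite directions in that line. MERTK, another TAM receptor, rose by 2.56 with the combination in A549 (SE 0.28, adjusted p = 1.47e-06), and TYRO3, the remaining one, by 1.37 with PF-06873600 (adjusted p = 6.53e-08). Levels were low in A549, where GAS6, TYRO3 and MERTK together summed to 14.87 to 15.23 CPM without drug and 24.82 to 27.93 CPM with the combination. The rise of MERTK with PF-06873600 (1.19, adjusted p = 0.00708) was lost without untreated replicate 1 (0.82, adjusted p = 0.0772) or PF-06873600 replicate 2 (1.05, adjusted p = 0.0629).

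The genes whose pattern over the 10 A549 libraries was most like that of a member were found by Pearson's r of log2(CPM + 1) among 13856 genes. The libraries share their treatment groups in pairs, so these values only describe the 5 group levels. For ANKRD1 the nearest were ADGRF4 (r = 0.998), TGFBI (r = 0.998) and SLAMF7 (r = 0.998). For CCN1 they were THY1 (r = 0.996), TIMP2 (r = 0.995) and VAT1 (r = 0.995), and for CCN2 PBXIP1 (r = 0.986), RBMS3 (r = 0.985) and CLDN4 (r = 0.985). THY1 was listed at 0 in untreated A549, and ADGRF4 and SLAMF7 were low there, with means of 0.404 and 0.505 CPM. RBMS3 is on the list of other targets. TGFBI, a secreted matrix protein, was the most abundant of these, with a mean of 419 CPM in untreated A549 and 4180 CPM with the combination. Among the members themselves, r was 0.981 between CCN1 and ANKRD1 but 0.770 between CCN1 and CCN2, which are of 1 family, and 0.642 between CCN2 and ANKRD1. Many other genes were nearer: ANKRD1 had rank 102 for CCN1, CCN1 had rank 124 for ANKRD1, and CCN2 had rank 2712 for CCN1.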

How the data were processed

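The 10 members and the gene lists were chosen with earlier results of these data known. Per the labels, libraries were made with a stranded mRNA kit, and the authors aligned single-end reads to hg38. The submitters' processing notes name HISAT2 2.2.1, HTSeq and GRCh38. The deposited values are raw counts per Ensembl gene, 1 file per library. Rows that name no gene (ambiguous reads 3.02 to 3.47%, low mapping quality 8.59 to 10.9%, no feature 3.74 to 5.99%, unmapped 1.37 to 2.65%) were left out of totals and tests. Symbols came from GENCODE 44 (60370 of 60683 identifiers). CPM used the total of gene rows, and this total also scaled the tests, after the study's own scaling. Genes past filterByExpr were tested with edgeR 4.0.16 (R 4.3.3) by the quasi-likelihood test, Benjamini-Hochberg adjusted, in a model of 10 A549 libraries, one of 4 SUM159 libraries, and one of the 8 untreated and PF-06873600 libraries of both lines. The scripts were first tested on simulated counts. In the model of both lines, low-count genes kept the recovery of changed genes under the criterion first set. After this was seen, the criterion was changed to genes with a mean of at least 50 counts, and the fitting code was left as it was. Alternatives were TMM, DESeq2 1.42.0, other filters (none, or a mean of 50 counts), only the groups compared, a replicate block, and each library left out. Named were all members, the highest and lowest called gene of each list in the combination and both PF-06873600 comparisons, and the 3 genes nearest to CCN1, CCN2 and ANKRD1. IGFBP3 and NT5E are also given in comparisons where the rule does not name them.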

Additional observations from a re-analysis of the deposited data

Results flagged for a closer look

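For 12 values the response to a treatment differed between groups by a test of the difference itself, edgeR's quasi-likelihood test with Benjamini-Hochberg adjustment over all genes. Of these, 8 are the difference between SUM159 and A549 in the log2 change with PF-06873600: ANKRD1 -2.78, AXL -2.21, CCN1 -1.96, CCN2 -1.06, AJUBA -0.91, AMOTL2 -0.77, TEAD1 -0.73 and YAP1 -0.40. The other 4 are the departure of the combination in A549 from the sum of the log2 changes with palbociclib and indisulam: CCN2 1.95, CCN1 1.01, AJUBA 0.33 and WWTR1 -0.57. Of all genes tested, 27.2% were called lower and 25.6% higher in the difference between the lines. In the interaction 10.7% were called higher and 14.5% lower. The AJUBA call was lost without palbociclib replicate 1 (0.28) or combination replicate 2 (0.30). Groups of 2 libraries are too small for a check of single libraries that stand apart.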

How the results depend on the processing

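Of 1080 member values under the alternatives, 1025 kept their direction and their side of the threshold, 18 lost a call, 11 gained one, and 26 changed sign, all of the last among values that were not called. With the replicate block 100 of 100 kept both. The labels do not say what the numbers stand for, and deviations of same-numbered libraries correlated between -0.303 and 0.271. What lies behind these correlations was not tested. With palbociclib the block gave 1258 genes higher and 1079 lower, and with the palbociclib numbers crossed, chosen after seeing the data, 1556 and 1467. Changes of sign were, with indisulam, CCN2 at -0.034 under TMM and -0.026 under DESeq2, and in the difference between the lines, WWTR1 at -0.047 and LATS2 at -0.049 under TMM. With each library left out in turn, CCN2 ran from -0.093 to 0.11 and LATS2 from -0.056 to 0.082 with palbociclib, CCN2 from -0.052 to 0.15 with indisulam, WWTR1 from -0.027 to 0.043 and LATS2 from -0.14 to 0.028 between combination and indisulam, YAP1 from -0.054 to 0.13, AMOTL2 from -0.11 to 0.054 and LATS2 from -0.15 to 0.017 in the interaction, LATS2 from -0.21 to 0.016 with PF-06873600 in SUM159, and WWTR1 from -0.089 to 0.10 and LATS2 from -0.096 to 0.13 in the difference between the lines. The number of members lower ran from 1 to 2 in the interaction and from 0 to 1 with PF-06873600 in A549. Over all genes, palbociclib gave 1310 higher and 1168 lower. It gave 543 and 406 when only the groups compared were fitted, 622 lower under DESeq2, and 779 to 816 higher and 522 to 656 lower without 1 palbociclib library. DESeq2 gave 2742 higher with indisulam against 4420, and 1495 lower in the interaction against 2281. The share of calls that were higher with indisulam was 61.6% by total counts, 50.4% by TMM and 51.9% by DESeq2. DESeq2 shifted the median of all genes between the untreated lines by -0.116. The cause of these changes was not tested. Depth limits ANKRD1 most, which had 22 to 24 counts in the untreated A549 libraries.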
